A study of Homo sapiens with 2 samples.

Results

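The transcripts described here are those of TXNIP, of the 4 ARRDC paralogs ARRDC1, ARRDC2, ARRDC3 and ARRDC4, and of the 3 basic helix-loop-helix regulators MLXIP, MLXIPL and MLX. These 8 genes were chosen by name, and their RBMS3 sites were all same-strand entries of the pooled crosslink site list that lay inside the genes as annotated in GENCODE release 44 on hg38. The rule gave 7 sites out of 27706 in the list. They came from CLIP-seq, in which ultraviolet light at 254 nm and 400 mJ/cm2 crosslinked protein to RNA in living cells and the RNA bound to a purified protein was sequenced. The cells were MDA-MB-231, a triple-negative breast cancer line, in which RBMS3, an RNA-binding protein of the MSSP family, carried a FLAG tag and was expressed from a lentivirus in addition to any endogenous protein. The 2 biological replicates formed the only group and had been pooled before sites were called, so the values below have no error between replicates. Replicate 2 is named MDA-MB-231 in its title, while its source and cell line fields end in another number, and it was treated as its title says. A control library of cells without the tagged protein was not analysed here.

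Alpha-arrestins are adaptor proteins that share the arrestin fold and recruit ubiquitin ligases of the NEDD4 family to membrane proteins, which are then internalized. TXNIP, the best known of them, also binds and inhibits thioredoxin, and together with ARRDC4 it limits glucose uptake. Both genes are transcribed in response to glucose by MondoA, the product of MLXIP, or by ChREBP, the product of MLXIPL, each of which binds DNA as a dimer with MLX. The glucose-sensing arm and the arrestins it controls therefore form a short feedback circuit, and the comparison asked which of its transcripts were crosslinked to RBMS3 and where.

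RBMS3 sites were found in 3 of the 8 transcripts. TXNIP held 3, MLX held 3 and ARRDC3 held 1, while ARRDC1, ARRDC2, ARRDC4, MLXIP and MLXIPL held none. All 7 lay in 3′UTRs. Among the 20046 protein-coding genes, taken without a filter on expression, 37.6% had a site anywhere on their own strand and 31.8% had one in a 3′UTR, so a count of 3 of 8 was close to the share among all genes. The arrestins had sites in 2 of 5 genes and the regulators in 1 of 3. The list holds only called sites, which leaves the coverage of the other 5 transcripts unknown, and a transcript without a site was not shown to be unbound. TXNIP was the transcript that the study itself pursued as an RBMS3 target, partly on the strength of these libraries, so its sites here are not independent evidence.

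The sequences at the sites are shown because the 3 bound transcripts differed in what surrounded the crosslinked base. They are written 5′ to 3′ on the transcript strand of hg38 in DNA letters. For TXNIP (chr1:145992447-145992476, minus strand) the capitals mark the 3 deleted bases. For ARRDC3 (chr5:91368723-91368751, minus strand) and for MLX at its upstream (chr17:42571787-42571815), middle (chr17:42572025-42572053) and downstream (chr17:42572650-42572678) sites on the plus strand, they mark the run of identical bases that holds the deletion. A deletion inside such a run cannot be assigned to 1 base, and at these sites it was listed at the lowest coordinate of the run.
TXNIP: tTgtaaaaaAtgaaaataaagttttttTaa
ARRDC3: gtgttttgTTTTTTTctgttttgtataat
MLX upstream site: aagcttctgattaaTTTattatattgacg
MLX middle site: cccaagtttgggcaTTTTggcagtagctg
MLX downstream site: gaggaaattaaataTTTTTatataaaatt

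In TXNIP all called sites were at the end of the transcript. TXNIP (ENSG00000265972.6) occupies positions 145992435 to 145996579 of chromosome 1 on the minus strand, and its 3′UTR, counted with the stop codon, is 1419 nt long. The 3 deletions lay 40, 32 and 14 nt before the annotated end and spanned 26 nt, so they formed 1 cluster when sites within 50 nt were joined. The poly(A) signal AATAAA lies between them, starting 27 nt before the end, 5 nt after the middle deletion and 13 nt before the last one. The site nearest the end, at position 145992449, lost a T in 776 of 10388 tags, which is 7.47% (95% Wilson interval 6.98 to 7.99%). The farthest site, at position 145992475, lost a T in 247 of 9284 tags, or 2.66% (2.35 to 3.01%). Between them, at position 145992467, an A was missing from 60 of 9917 tags, or 0.605% (0.470 to 0.778%). A tag is a unique sequenced fragment, and the intervals cover counting error only.

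The percentages at the 3 TXNIP sites differed from each other although their coverage was similar. The site nearest the end exceeded the farthest by 4.81 percentage points (95% Newcombe interval 4.21 to 5.42, Fisher exact test, adjusted p = 3.40e-54) and the middle one by 6.87 points (6.35 to 7.40, Fisher exact test, adjusted p = 2.27e-157). The farthest exceeded the middle one by 2.06 points (1.70 to 2.43, Fisher exact test, adjusted p = 3.41e-31). All Fisher tests were two-sided, with Benjamini-Hochberg adjustment over 5 pairs of sites, 3 of them inside TXNIP and 2 between the site with the most deletions in TXNIP and that in ARRDC3 or MLX. The tests compare tags of 1 pool, not replicates or conditions, and tags that span several of these nearby sites entered them as if independent. All 3 TXNIP sites had passed the filter for calling, so these p-values are not those of unselected sites. The deletions were also in unlike runs, of 7 T nearest the end, 6 A in the middle and 3 T at the farthest site. The part of base, run and filter in these differences was not tested.

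**Figure D1:**
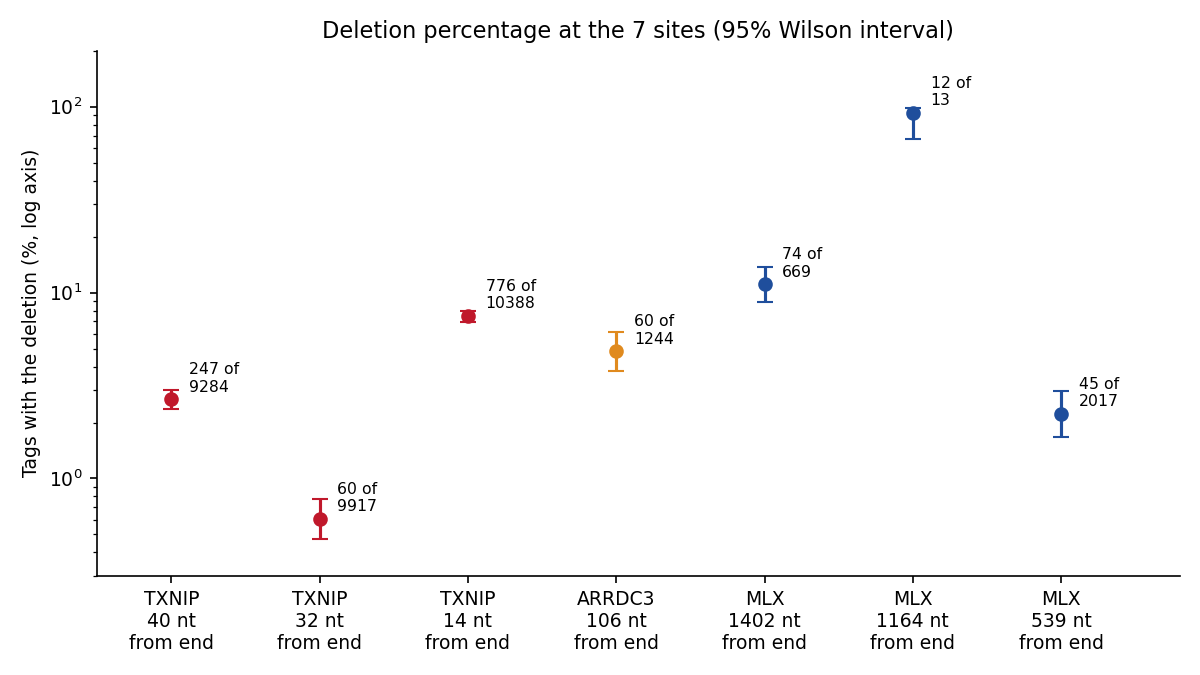
Percentage of covering tags with the deletion (log axis, points) and its 95% Wilson interval (bars) at the 7 sites, labelled with the distance from the nearest annotated transcript end and with deletions of tags. The 3 TXNIP sites run from 0.605 to 7.47%, ARRDC3 is at 4.82%, and the MLX site at 92.3% rests on 13 tags.

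ARRDC3, an alpha-arrestin that promotes removal of adrenergic receptors and integrins from the cell surface, held the only other site among the arrestins. ARRDC3 (ENSG00000113369.9) lies on chromosome 5 at 91368631 to 91383317 on the minus strand and has a 3′UTR of 2772 nt. At position 91368737, 106 nt before the end, a T was missing from 60 of 1244 tags, or 4.82% (3.77 to 6.16%). This was 2.65 points below the strongest TXNIP site (1.22 to 3.83, Fisher exact test, adjusted p = 0.000591). Both sites had passed the filter for calling, and that of TXNIP was picked by its deletions, so this p-value is not that of unselected sites. Both lie in runs of 7 T. Listed sites in such runs had a median of 5.10% at coverage within 2-fold of the ARRDC3 site. At coverage within 2-fold of the strongest TXNIP site it was 3.25%. The effect of the filter on the difference was not tested. Coverage was 8.35-fold higher at TXNIP than at ARRDC3, and the strongest TXNIP site had 12.9-fold more deletions. Levels of the transcripts were not analysed here, so coverage and abundance cannot be told apart.

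The regulator MLX, the obligate partner of MondoA and ChREBP, was bound away from its end. MLX (ENSG00000108788.12) lies on chromosome 17 at 42567072 to 42573239 on the plus strand, with a 3′UTR of 1603 nt in its canonical transcript. Its sites were 1402, 1164 and 539 nt from the nearest annotated end and spanned 863 nt, so each formed a cluster of its own. At the upstream site, position 42571801, a T was missing from 74 of 669 tags, or 11.1% (8.90 to 13.7%). At the downstream site, position 42572664, it was 45 of 2017 tags, or 2.23% (1.67 to 2.97%). The middle site, position 42572039, rested on 13 tags, of which 12 lacked the same T (92.3%, interval 66.7 to 98.6%). No other of the 7 sites passed 30%, and sites under 30% made up 87.1% of the 21230 sites in 3′UTRs. A base missing from nearly every tag can also be a difference between the genome of the cells and the reference, which was not tested.

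The strongest TXNIP site had a lower percentage than the MLX site with the most deletions, by 3.59 points (1.37 to 6.24, Fisher exact test, adjusted p = 0.00124), but 10.5-fold more deletions. Both sites had passed the filter for calling and were picked by their deletions, so this p-value is not that of unselected sites. The compared sites were in runs of unlike length, 7 T in TXNIP and 3 T in MLX. Listed sites in runs of 3 T had a median of 6.58% at coverage within 2-fold of this MLX site. Listed sites in runs of 7 T had a median of 3.25% at coverage within 2-fold of the strongest TXNIP site. For the farthest TXNIP site, in a run of 3 T and not part of this comparison, the median was 1.94%. The effect of the filter on the difference was not tested. The highest coverage at TXNIP was 5.15-fold that at MLX. Among the 3 genes with sites, TXNIP thus had the most tags and deletions but not the highest share of tags with a deletion. Of the 1274 deletions summed over the 7 sites, TXNIP contributed 1083, or 85.0%.

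The 3′ part of MLX overlaps PSMC3IP, a recombination factor gene on the minus strand (42572310 to 42577831), over 930 nt. The list had 3 minus-strand sites in this overlap, at 42572316 (168 of 4788 tags), 42572337 (138 of 5371 tags) and 42572342 (66 of 4772 tags), all near the end of PSMC3IP. They were assigned by strand to PSMC3IP and left out of the MLX count, and the downstream MLX site lies inside the overlap on the other strand. The other 7 genes had no site on the opposite strand.

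**Figure D2:**
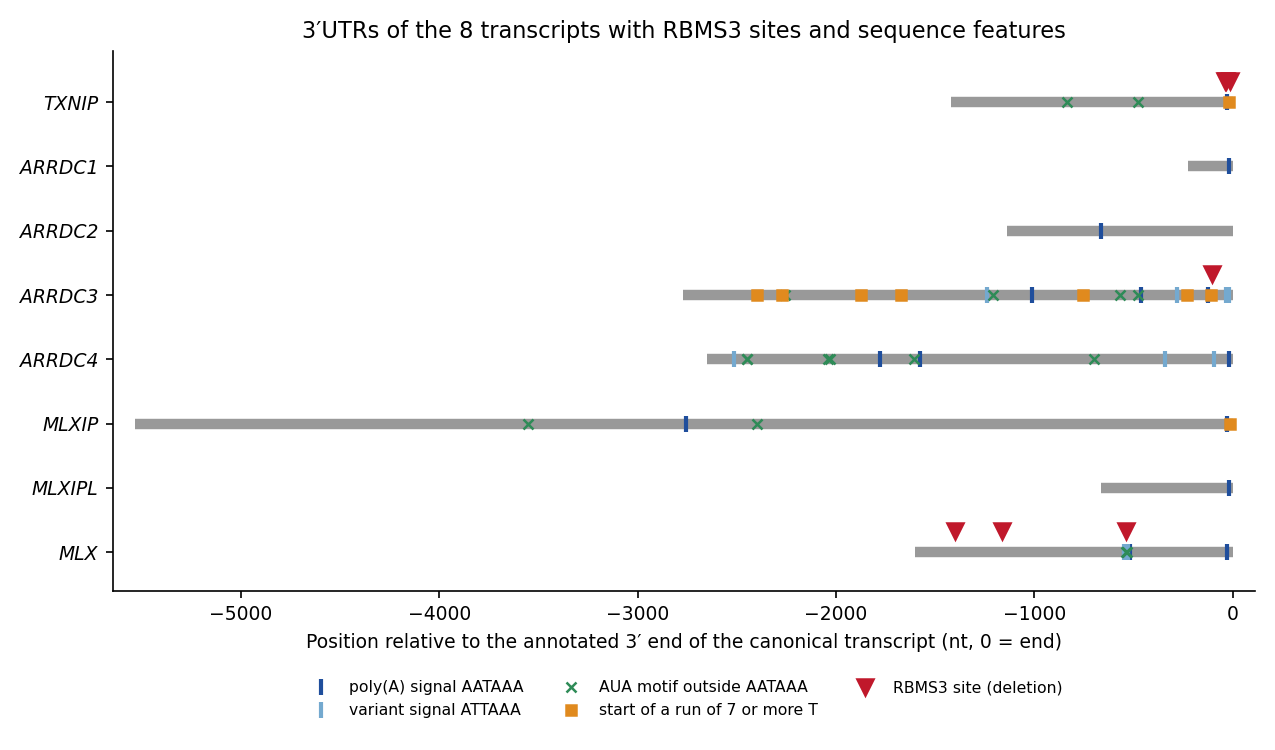
The 3′UTRs of the 8 canonical transcripts (grey bars) aligned at their annotated 3′ ends (x axis, nt), with poly(A) signals, AUA motif matches outside AATAAA, runs of 7 or more T and RBMS3 sites (red triangles). The TXNIP sites fall on the last 40 nt, the ARRDC3 site lies 106 nt from the end, and the MLX sites are spread over the body of the 3′UTR.

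Compared with all 6372 genes that had a site in a 3′UTR, TXNIP stood high by deletions and less high by coverage. Its strongest site, meaning that with the most deletions, ranked 200 by deletions, above 96.9% of the genes, against a median of 82 deletions (quartiles 49 and 174). Its coverage of 10388 tags ranked 1271, above 80.1% of the genes, against a median of 3237.5 tags. ARRDC3 ranked 4044 by deletions and 4617 by coverage, and MLX ranked 3448 and 3991, so both were below the median on each measure. The 3 sites of TXNIP and of MLX exceeded the median of 2 sites per gene, and 13.9% of protein-coding genes had 3 or more sites in 3′UTRs. Among the 21230 individual sites, that at position 145992449 of TXNIP ranked 250 by deletions, above 98.8% of them, while the A deletion at 145992467 and the ARRDC3 site, with 60 deletions each, were above 45.1%.

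**Figure D3:**
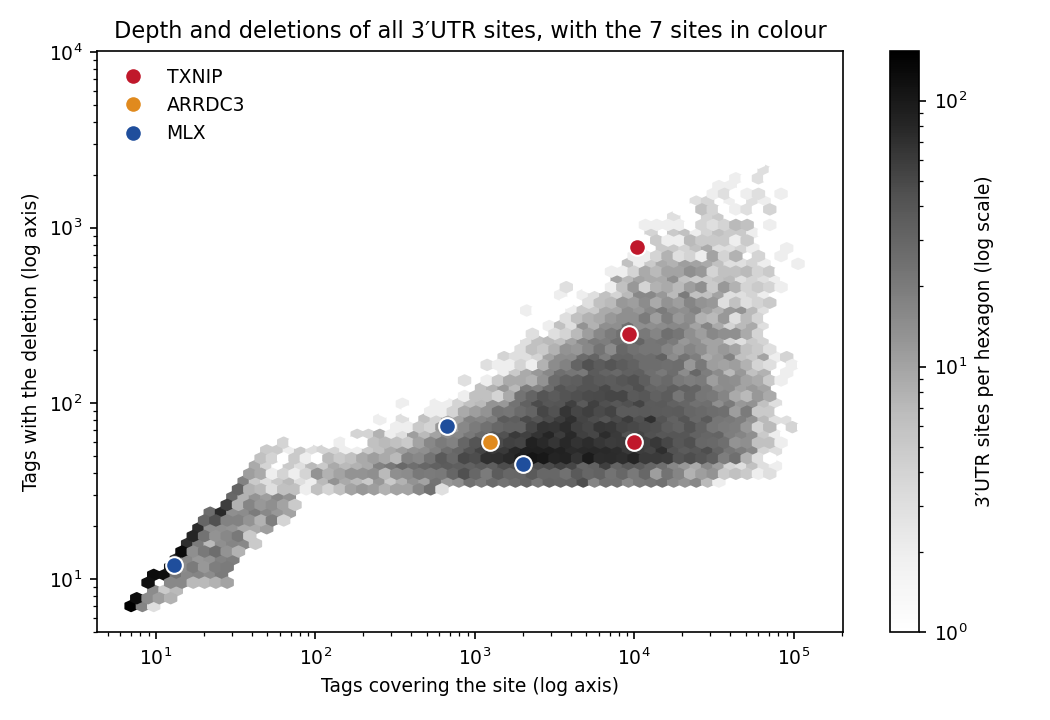
Tags covering each site (x, log axis) against tags with the deletion (y, log axis) for all 21230 sites in 3′UTRs (grey hexagons, darker where more sites fall) and the 7 sites of the 8 genes (coloured points). The TXNIP site with 776 deletions lies at the upper edge for its coverage, while the ARRDC3 site with 60 deletions lies close to the median of 64 and the MLX downstream site, with 45, lies below it.

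The bound transcripts differed in the distance of their sites from the end. All 3 TXNIP sites, and no site of ARRDC3 or MLX, lay within 100 nt of an annotated end, where 65.6% of all 3′UTR sites lay. The ARRDC3 site, at 106 nt, was just outside this cut, while the MLX sites lay at 539 to 1402 nt. Other cuts were not tried. The median distance over all 3′UTR sites was 38 nt. A 3′UTR site within 100 nt of an end was present in 24.9% of protein-coding genes. Library preparation added a poly(A) tail to the trimmed RNA and captured it with oligo(dT), and RNA that already ends in a tail can be captured and primed the same way. The last 9 bases of the TXNIP transcript are A in the genome, and a run of 9 or more A within 30 nt downstream occurred at 1.8% of 3′UTR sites. Of the TXNIP sites only that 14 nt from the end had such a run. At the sites 40 and 32 nt from the end the longest run was 6 and 7 A. The part of these features in the TXNIP cluster was not tested.

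The poly(A) signal AATAAA, searched on the transcript strand within 25 nt of each deletion, was present at all 3 TXNIP sites and at the ARRDC3 site, 4 of 7 in all, against 52.6% of 3′UTR sites. With its variant ATTAAA it was 5 of 7, the fifth being the MLX downstream site, against 65.4%. In ARRDC3 the signal starts 20 nt before the deletion and is not the last in the transcript, since 3 ATTAAA and no AATAAA lie in the last 40 nt. A signal near the end was present in transcripts with and without a called site. AATAAA was present in the last 40 nt of 6 of the 8 transcripts, the exceptions being ARRDC2 and ARRDC3, and of these 6 only TXNIP had a site within 100 nt of its end. It starts 18 nt from the end in ARRDC4 and MLXIPL, 21 nt in ARRDC1, and 27 nt in MLXIP and MLX, the same distance as in TXNIP. Over all genes, 34.7% of those with AATAAA in the last 40 nt had a 3′UTR site, against 27.5% of those without.

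**Figure D4:**
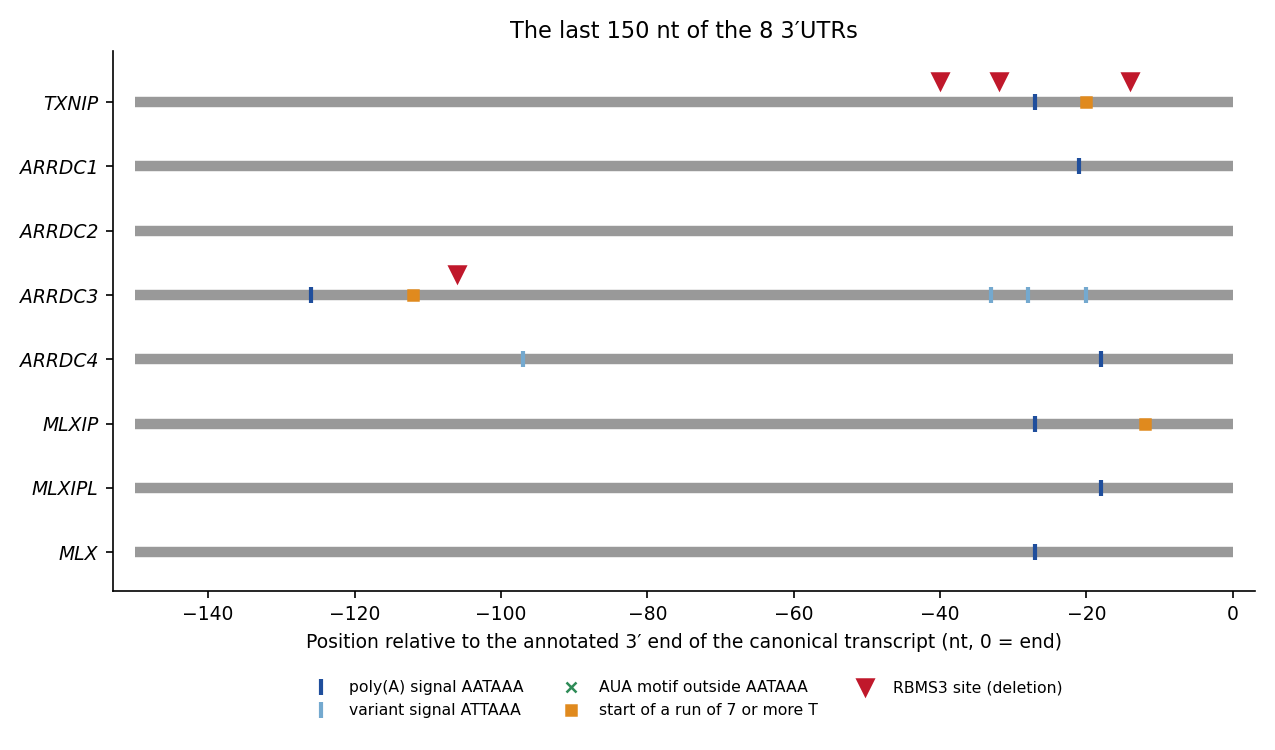
The last 150 nt of the 8 canonical 3′UTRs, aligned at the annotated 3′ end (x axis, nt), with the same symbols as in the map of whole 3′UTRs. AATAAA lies 18 to 27 nt from the end in 6 transcripts, but RBMS3 sites (red triangles) are next to it in TXNIP alone.

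The AUA motif is the element that the study associated with RBMS3. Its methods also report AATAAA as the most significant of the A/U-rich motifs at the sites called from these libraries. The AUA motif was searched on the transcript strand as a 7-nt pattern, with A, G or T first, A or T next, ATA in the middle, then A or T, and A last. The pattern also matches AATAAA when A, G or T precedes it, so it overlaps the poly(A) signal. Within 25 nt of the deletion it was present at 5 of the 7 sites, against 51.7% of 3′UTR sites. At the 3 TXNIP sites and at ARRDC3 the only match was AAATAAA. Matches that do not contain AATAAA were present at 1 of 7 sites, the MLX downstream site, with TTATATA and ATATAAA, against 15.5% of 3′UTR sites. The MLX upstream and middle sites had no match in their windows.

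Across whole 3′UTRs the motif was also present in transcripts without a site. The 8 canonical 3′UTRs held 28 matches, 14 in the 3 bound transcripts and 14 in the other 5, of which 9 were in ARRDC4. ARRDC4, which like TXNIP limits glucose uptake, had no called site, and its coverage is unknown. Its 3′UTR of 2649 nt held 6 matches outside AATAAA at 63.0% A and T, against 2 such matches and 59.0% in TXNIP. The 3′UTR of MLXIP, with 5535 nt the longest of the 8, held 2 matches outside AATAAA at 44.4% A and T. For this count a match was near a site when either of its ends was within 25 nt of a deletion, so a match that the windows above held only in part was included. In the bound transcripts 5 of 14 matches were near a site, namely 1 of 3 in TXNIP, 1 of 7 in ARRDC3 and 3 of 4 in MLX, of which 1 contains the AATAAA that only partly entered the window of the MLX downstream site, against 15.1% of matches in all genes with a 3′UTR site. Outside AATAAA it was 2 of 8, both in MLX, against 8.54%, and neither of the 2 in TXNIP nor any of the 4 in ARRDC3 was near a site. By the same rule AATAAA itself was near a site in 3 of its 6 copies in these 3 transcripts, 1 in each, against 28.9%. ARRDC1, ARRDC2 and MLXIPL had short 3′UTRs or ones poor in A and T (225, 1139 and 666 nt, with 36, 45.7 and 40.5% A and T) and no match outside AATAAA.

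T was the deleted base at 6 of the 7 sites, against 65.5% of 3′UTR sites. Across the 3′UTR sites with deletions in under 30% of tags, median percentages were higher in longer T runs, from 0.435% for a lone T to 7.04% for 9 T, with the exception that runs of 4 (2.35%) and of 5 (2.76%) were below runs of 3 (2.90%). Median deletions changed less, from 58 for a lone T and 67 for 2 T to 85.5 for 9 T. These medians were not matched for coverage, and its part in the trend was not tested. The strongest TXNIP site and the ARRDC3 site were both in runs of 7 T, and 1.82% of 3′UTR sites were in runs of 7 or more. Among the 147 such sites in runs of exactly 7 T, the median was 4.39% (quartiles 2.98 and 7.22%). The TXNIP value of 7.47% was above 78.2% of them, and above 96.6% of the 29 whose coverage was within 2-fold of its own, which had a median of 3.25%. Sets of sites in the same run, here and below, include the compared site itself, so the TXNIP value was the highest of the 29. The ARRDC3 value of 4.82% was near the middle, above 55.1% of the 147 and above 41.1% of the 56 with similar coverage.

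TXNIP and ARRDC3, both alpha-arrestins, shared an arrangement that was singled out after their values were seen, with AATAAA followed within 25 nt by a run of 7 or more T that held an RBMS3 deletion. In TXNIP the run starts 7 nt after the start of the signal and 20 nt before the transcript end. In ARRDC3 it starts 14 nt after the signal and 112 nt before the end. MLXIP has the same arrangement, with a run of 8 T that starts 15 nt after the signal and 12 nt before the end, and had no site. Over all protein-coding genes 8.1% of 580 such runs held a site, and over genes with a 3′UTR site 16.2% of 291 did, against 3.09% of all runs of 7 or more T in those genes. ARRDC3 has 7 runs of 7 or more T in its 3′UTR, and 1 of the 7, the one described, held a site.

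The MLX sites were in shorter runs. The upstream site was in a run of 3 T, where 4962 sites had a median of 2.90%, and its 11.1% was above 95.3% of these. Among the 790 of them within 2-fold of its tags the median was 6.58%, and it was above 88.1%. The downstream site, in a run of 5 T, was above 35.0% of 898 sites and above 23.7% of the 396 with similar coverage. At the farthest TXNIP site, in a run of 3 T, 2.66% was above 45.4% of the same 4962, but above 67.5% of the 1678 with similar coverage. The A deletion between the other two sites, in a run of 6 A, was above 42.4% of 66 and above 51.5% of the 33 with similar coverage.

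**Figure D5:**
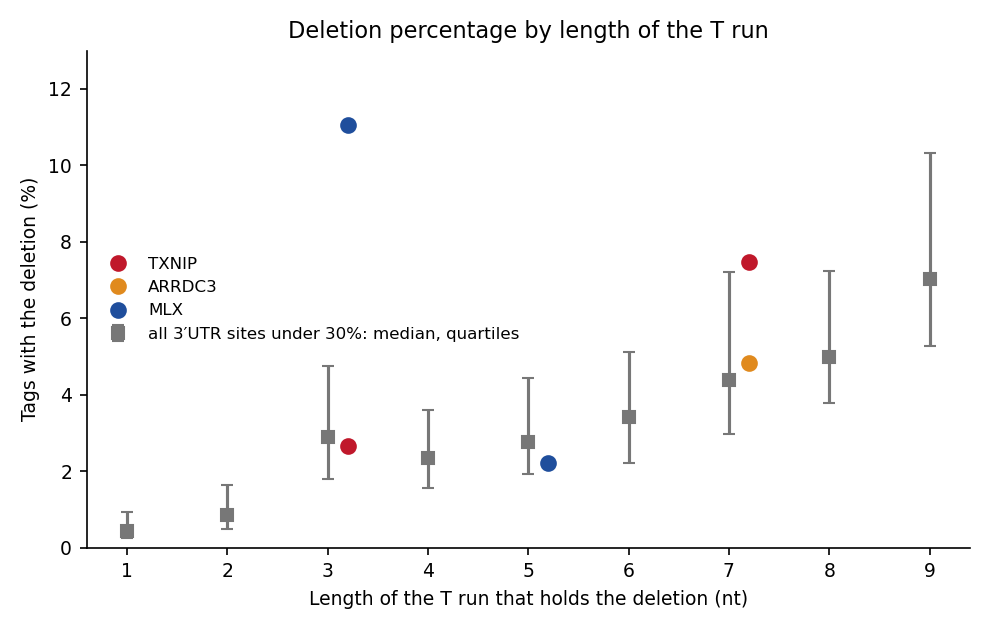
Deletion percentage (y) by the length of the T run that holds the deletion (x, nt) for all 3′UTR sites with deletions in under 30% of tags (grey squares with quartiles) and for the 5 T sites of TXNIP, ARRDC3 and MLX under 30% (coloured points, set slightly to the right). TXNIP at 7.47% is above the upper quartile of 7.22% for runs of 7, and the MLX upstream site at 11.1% is above the quartiles for runs of 3.

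Of the transcripts that the alpha-arrestins and MLX work with, taken as 5 lists of related genes, the list of ubiquitin ligases had the largest share of genes with a site. Among 9 genes of NEDD4-family ligases, the enzymes that arrestins recruit, 7 (77.8%) had a 3′UTR site against 31.8% of all genes. SMURF2 led them with 223 of 9651 tags (2.31%), followed by NEDD4L with 70 of 2052, NEDD4 with 65 of 1560, ITCH, the ligase known to degrade TXNIP, with 62 of 3251, and WWP1 with 46 of 1419. HECW2 was counted on a site with 25 of 43 tags (58.1%), where a difference from the reference genome was not tested either. Counting only sites under 30%, 6 of the 9 genes had one. With at least 50 deletions 4 of the 9 did, against 3 of the 6 genes of the glucose uptake list. The ligase list then no longer had the largest share. WWP2 and HECW1 had none in a 3′UTR. The median of their strongest sites, 62 deletions, was below the 82 of all genes with a site. These lists were not tested for enrichment, and no filter on expression was applied.

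In the MYC and MAX network, to which MLX belongs as a dimerization partner, 6 of 10 genes (60%) had a 3′UTR site, against 31.8% of all genes. MYC had 281 of 9834 tags (2.86%) and MAX 267 of 13835 (1.93%) at their strongest sites. The MXD repressors that bind MAX had weaker ones, with 65 of 2405 tags in MXD3, 50 of 961 in MXI1 and 46 of 3078 in MXD1. The strongest sites of these 5 genes lay 6 to 25 nt from an end, and that of MGA, the sixth, with 37 of 220 tags, lay 205 nt from an end, against 1402 nt for MLX.

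The thioredoxin system, the target of TXNIP, had 3′UTR sites in 2 of 5 genes (40%), against 31.8% of all genes. TXN, thioredoxin itself, had 544 of 51794 tags (1.05%) at a site 234 nt from the end and 8 sites in its 3′UTR, and TXNRD1, its cytosolic reductase, had 440 of 46668 (0.943%) at 2 nt and 10 sites there. The mitochondrial TXN2 and TXNRD2 had none, and the 2 sites of TXNRD3 were outside its 3′UTR. Both had fewer deletions at these sites than the 776 of TXNIP, at higher coverage.

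Both glucose transporter genes of the list, which stand for the uptake that TXNIP limits, had sites. SLC2A1, which encodes GLUT1, had 25 sites in 4 clusters and 597 of 39237 tags (1.52%) at the strongest, and SLC2A3, which encodes GLUT3, had 111 of 2255 (4.92%). HK1, a hexokinase, had 509 of 11070 (4.60%), a coverage close to that of TXNIP. HK2 and the AMPK subunit genes PRKAA1 and PRKAA2 had no site. In this list 3 of 6 genes (50%) thus had a 3′UTR site, against 31.8% of all genes.

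Among the other genes with an arrestin fold, 2 of 8 (25%) had a 3′UTR site, against 31.8% of all genes. VPS26A and VPS26C, subunits of the retromer and retriever sorting complexes, had 286 of 20170 tags (1.42%) and 102 of 3207 (3.18%), at 7 and 11 nt from an end. VPS26B, the beta-arrestins ARRB1 and ARRB2, the visual arrestins SAG and ARR3, and ARRDC5 had none.

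The 5 genes whose pattern was most like that of TXNIP were sought among the 385 genes with 3 sites in 3′UTRs that all fell in 1 cluster. Likeness was the Euclidean distance over deletions, tags and distance from the end at the strongest site, on log2 scales divided by their SD, with a median of 3.02 over these genes. TERF2IP was the nearest at 0.288, with 761 of 9042 tags (8.42%) at 10 nt from the end. GLB1 followed at 0.394 (913 of 12584 tags, 11 nt), then SSBP1 at 0.606 (608 of 14391, 11 nt), ESAM at 0.609 (519 of 10744, 15 nt) and XRN2 at 0.675 (799 of 8530, 36 nt). AATAAA lay within 25 nt of the site in each but SSBP1. Their deletions were in runs of 3 or 4 T, shorter than the 7 T of TXNIP.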

How the data were processed

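RBMS3 with a FLAG tag was mapped by CLIP-seq in 2 replicates of MDA-MB-231. Per the study's methods, the authors appended molecular identifiers to the reads and used the CLIP Tool Kit (version not given in the sources used here) to align to hg38, reduce reads to unique tags, pool both replicates and call deletion sites at a false discovery rate under 10% and a fold above 10, whose definition is not given. What the authors deposited are raw counts of tags and of tags with the deletion per site, written inside a text column, and were not normalized. Total depth per library was not analysed here, and depth is given per site.

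The centre of each 21-nt interval was taken as the deleted base and placed on GENCODE release 44 by strand, any annotated 3′UTR first. The distance is to the nearest annotated end of the gene. Sites within 50 nt were joined into clusters. Motifs were searched 25 nt to each side. Shares have 95% Wilson intervals, and pairs of sites were compared by two-sided Fisher exact tests (Python 3.11.15, scipy 1.17.1, numpy 2.4.6, pysam 0.24.0, samtools 1.23.1), which were tested on simulated data. The simulated tags were independent and passed no filter for calling, unlike those of the listed sites. With 1 group, nothing was compared between conditions. The genes named are the 8 genes, at most 5 per related list by deletions at a 3′UTR site (MGA, HECW2 and genes without a 3′UTR site are also named), and the 5 genes most like TXNIP. The genes, lists and rules were chosen with earlier results of these data known. Alternatives were other minimum deletions and percentages, strand, annotation, gene ends, windows, cluster gaps and intervals.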

Additional observations from a re-analysis of the deposited data

How the results depend on the processing

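The finding that TXNIP, ARRDC3 and MLX held sites and the other 5 genes did not was kept with canonical transcripts, any overlap of the 21-nt interval, 1000 nt of downstream sequence, at least 20 or 50 deletions (6 and 5 sites), deletions in under 30% of tags (6 sites) and strand ignored (10 sites, the additional ones in MLX). Requiring deletions in at least 10% of tags left 2 sites in 1 gene, both in MLX. The share of protein-coding genes with a 3′UTR site, 31.8%, became 30.8% with canonical transcripts, 29.2% and 23.6% with at least 20 and 50 deletions, 13.6% with at least 10% of tags and 27.6% with under 30%, since fewer sites remained. With at least 50 deletions 4 of 9 NEDD4-family genes had a site, against 3 of 6 genes for glucose uptake, so the NEDD4 family no longer had the largest share. With at least 10% of tags it was 4 of them, 2 of the MYC and MAX network, 1 of the arrestin-fold genes and 0 of the thioredoxin system. A poly(A) signal and the AUA motif were each present at 2 of 7 sites within 10 nt, since the window is shorter, and at 5 within 50 nt. With joining over 10 nt the TXNIP sites formed 2 clusters. The difference between TXNIP and MLX kept its direction at the sites of highest percentage, where it was -84.8 points and rested on the MLX site with 13 tags. No result reversed. No paired analysis was possible because there was 1 group and the list pools both replicates, and for the same reason no replicate could be left out. Sites with deletions in under 30% of tags all had at least 110 tags, so low deletion percentages were not detectable at low coverage.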
